A study of Solanum lycopersicum with 36 samples.

Results

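In leaves of tomato (Solanum lycopersicum), 88 of 29285 measured genes stood apart from wild type in the same direction in 2 lines, SGT2ox and SGT1ami, both at the start of the experiment and 3 h later. Of these, 50 were higher in both lines and 38 were lower in both. They were chosen from the measured values. For each gene the mean of a group's 3 libraries was put on the scale log2(mean + 1), and each line was set against its own wild type at 0 h and at 3 h. A gene was kept when its 4 differences had the same sign and each was at least 1.5-fold in size on this scale, and when at least 1 of the 8 groups had a mean of 30 or more. Values are normalised reads, that is reads per gene after division by each library's size factor, and they are not corrected for gene length. The libraries taken at 24 h played no part in the choice, so only differences at 24 h were tested. Unless said otherwise, the spread between replicates in these tests was estimated over the libraries of all times. That estimate drew on the 0 h and 3 h libraries that chose the genes, so these p-values are not fully separate from the choice.

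Published work describes SGT1 and SGT2 as sterol glycosyltransferases, which add a sugar unit to the free sterols of plant membranes and so make steryl glycosides. In plants the balance of free and conjugated sterols is tied to membrane properties and to responses to cold and other stresses. The name SGT2ox is taken to mean a line that overexpresses SGT2, and SGT1ami a line with an artificial microRNA directed against SGT1. Neither the promoters nor the number of independent transformants are stated in the labels. Read in this way, the lines change sterol glycosyltransferase expression in opposite directions, and the 88 genes are those that nevertheless shared a direction.

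All plants were of the dwarf cultivar Micro-Tom, about a month old, and polyadenylated RNA of the third and the fourth leaf was sequenced. The SGT2ox experiment held SGT2ox and its wild type, and the SGT1ami experiment, run separately, held SGT1ami and another wild type set. Each genotype was sampled at 0, 3 and 24 h with 3 libraries a group, 36 libraries in 12 groups, and the labels call the triplicates biologically independent. Plants were kept at standard temperature or moved to the cold, per the labels' protocols, but the labels of a library give a time and no temperature. Each library held 36602841 to 43742623 reads. The p-values measure only the spread between such libraries. This spread was small, with a median SD within groups on the log2 scale of 0.12 for SGT2ox with its wild type. For SGT1ami with its wild type the median was 0.11, each over all genes tested. It was wider for the 88 genes, at 0.415 and 0.336. How much variation between plants the libraries carry was not tested. Small p-values and large shares of genes called are therefore not a measure of that variation. In whole leaves, fewer cells of a type and less RNA per cell cannot be told apart.

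The targeted genes check the labels. Solyc09g061860 and Solyc06g007980 are remembered from published work as SGT2 and SGT1, although none of the tables at hand links them to these names. Solyc09g061860 averaged 26662 ± 248 normalised reads in SGT2ox at 0 h, against 995 ± 59.4 in its wild type (SD, n = 3 each). At 24 h it averaged 44063 ± 467 in SGT2ox, against 1372 ± 18.8 in wild type. Solyc06g007980 averaged 2435 ± 69.7 in SGT1ami at 0 h, against 7845 ± 112 in wild type, and 2373 ± 95.1 at 3 h, against 5948 ± 198. At 24 h the libraries labelled SGT1ami held 6173 ± 51.3, against 6685 ± 214 in their wild type, a log2 difference of -0.11 (limma, adjusted p = 0.017). This small difference was not particular to Solyc06g007980. In the same comparison Solyc09g061860 had a log2 difference of -0.11 as well (limma, adjusted p = 0.0158). Scaling by library totals moved the median log2 difference of all genes tested there from -0.03 to 0.06. The low level of Solyc06g007980 at 0 h and 3 h was thus not seen in these 3 libraries, which goes against their label. They are called below the libraries labelled SGT1ami at 24 h, and whether line, time or label lies behind their values cannot be told apart.

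None of the identifiers matched the gene table at hand, and the deposited values do not pair them with names. The 88 genes are therefore given by identifier, with no statement on what their products do. In these identifiers the digits before the letter g give the chromosome.

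Before the shared genes, the full lists give the scale of the overlap. At the same limits, 281 genes were higher at both times in SGT2ox and 262 were higher at both times in SGT1ami. The 50 shared genes made up 17.8% of the SGT2ox list and 19.1% of the SGT1ami list. Lower at both times were 300 genes in SGT2ox and 150 in SGT1ami, and the 38 shared genes were 12.7% and 25.3% of these lists. Genes with opposite directions existed as well. There were 32 that were lower in SGT2ox and higher in SGT1ami, which were 10.7% and 12.2% of the lists they came from. Only 5 were higher in SGT2ox and lower in SGT1ami, which were 1.78% and 3.33%.

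The differences among the 50 higher genes ran from just above the limit to near absence in wild type. The smallest of a gene's 4 differences was 1 or more in 27 genes, 2 or more in 15 and 3 or more in 8, with a maximum of 7.36. In the other 23 it lay between 0.59 and 1. Just inside the limit were Solyc06g050340 at 0.59 and Solyc05g054820.1 at 0.60, and just outside it Solyc05g050350 at 0.58 and Solyc05g048800 at 0.56. The differences were larger in SGT2ox than in SGT1ami in 28 of the 50 (means of 0 h and 3 h).

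Solyc08g066400 had the largest smallest difference of the higher genes. At 0 h it had 895, 883 and 929 normalised reads in SGT2ox and 0 in each of the 3 wild type libraries. At 3 h it had 1137, 958 and 1122 in SGT2ox, against 0, 4.66 and 0 in wild type. In the SGT1ami experiment it had 167, 154 and 168 at 0 h and 276, 316 and 317 at 3 h in SGT1ami, and 0 in all 6 wild type libraries. The gene was thus abundant in every library of both lines at these times and at or near 0 in every wild type library. Against a floor of 3 reads over a group of wild type libraries, the SGT1ami mean at 0 h was at least 206-fold higher and at 3 h at least 314-fold higher.

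Solyc04g039670, on another chromosome, followed the same pattern. It had 592, 611 and 501 normalised reads in SGT2ox at 0 h, against 0, 1.62 and 0 in wild type, and 541, 489 and 519 at 3 h, against 0 in all 3. In SGT1ami it had 152, 133 and 177 at 0 h and 157, 134 and 126 at 3 h, and none of the 6 wild type libraries held a read. For both genes the level in SGT2ox exceeded that in SGT1ami in every library at these times. Near absence of this kind, a wild type mean under 3 at 0 h and at 3 h, was seen for 15 of the 50 higher genes in the SGT2ox experiment and for 12 in the SGT1ami experiment, with 9 in both.

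The most abundant of the higher genes showed graded differences instead. Solyc04g009850, with the highest mean over all libraries, had 174, 164 and 196 normalised reads in SGT2ox at 0 h, against 72.0, 67.2 and 68.6 in wild type. At 3 h it had 330.5, 323 and 369 in SGT2ox, against 99.1, 103 and 117. In SGT1ami it had 569.9, 531 and 583 at 0 h, against 235, 248 and 232, and 641, 648 and 620.2 at 3 h, against 267, 304 and 279. Each line was above its wild type without overlap, and the wild type of the SGT1ami experiment was itself above SGT2ox at 0 h. Solyc10g150122, the next in abundance, had 982, 1026 and 939 in SGT2ox at 0 h, against 439, 505 and 436, and 642, 669.6 and 667 in SGT1ami, against 394, 402 and 394.

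**Figure D1:**
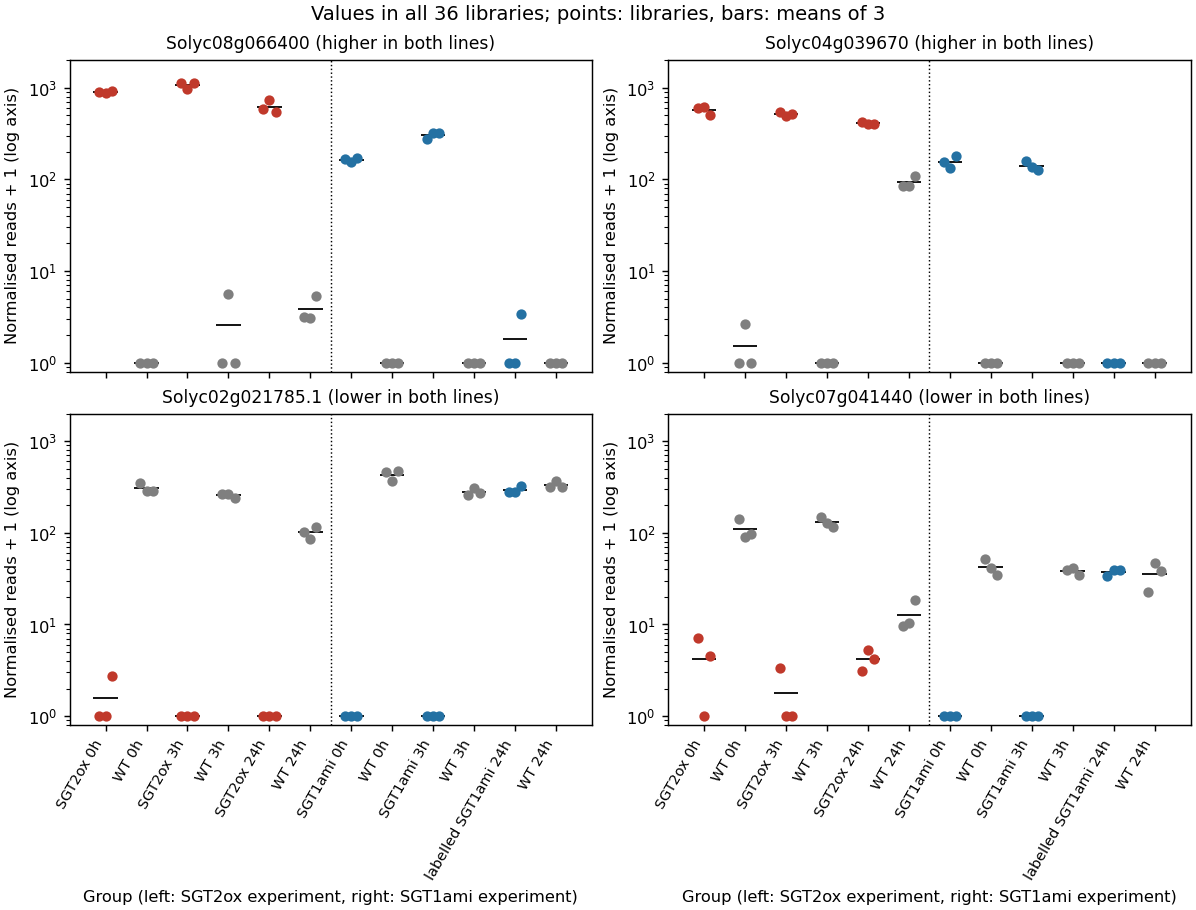
Normalised reads + 1 on a log axis in all 36 libraries for the 2 higher and the 2 lower genes with the largest smallest difference; each point is a library, each bar the mean of 3, and the dotted line separates the SGT2ox experiment (left) from the SGT1ami experiment (right). In the libraries labelled SGT1ami at 24 h, on the right, all 4 genes lie close to their wild type, while at 0 h and 3 h line and wild type lie far apart.

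Among the 38 lower genes, the smallest of the 4 differences was 1 or more in size in 18, 2 or more in 8 and 3 or more in 4, with a maximum of 7.60. It was under 1 in the other 20. Just inside the limit were Solyc08g006257.1 and Solyc12g011350, both at 0.59 to 0.60, and just outside it Solyc07g062500 at 0.58 and Solyc10g049515.1 at 0.58. Here SGT2ox showed the larger difference in 15 of the 38.

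Solyc02g021785.1 had the largest smallest difference of the lower genes. At 0 h SGT2ox held 0, 0 and 1.74 normalised reads, against 345, 286 and 284 in wild type, and at 3 h it held 0 in all 3 libraries, against 267, 265 and 238. SGT1ami held 0 in all 6 libraries of 0 h and 3 h, against 456, 366 and 470.3 at 0 h and 256, 306 and 272 at 3 h in wild type. The gene was detected in every library of both wild types and was all but missing from both lines. With the floor of 3 reads over a group, the SGT1ami mean was at least 538-fold lower at 0 h and at least 302-fold lower at 3 h.

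Solyc07g041440 was less abundant and showed the same order. It had 6.07, 0 and 3.48 in SGT2ox at 0 h, against 139.9, 88.2 and 96.1 in wild type, and 2.31, 0 and 0 at 3 h, against 146, 126 and 114. SGT1ami held no read in any of its 6 libraries of these times, against 51.2, 39.8 and 33.5 at 0 h and 38.6, 40.6 and 33.7 at 3 h in wild type. A line mean under 3 at both times was seen for 9 of the 38 lower genes in the SGT2ox experiment and for 7 in the SGT1ami experiment, with 5 in both.

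The abundant lower genes differed by less. Solyc06g010030 had 169.9, 146 and 151 normalised reads in SGT2ox at 0 h, against 447, 465 and 443 in wild type, and 217, 249 and 268 in SGT1ami, against 749, 703 and 678. At 3 h it had 560.4, 549.7 and 668 in SGT2ox, against 919.8, 911 and 887, and 648, 688 and 648 in SGT1ami, against 1122, 1106 and 1088. Line and wild type did not overlap in either experiment, and both genotypes stood higher at 3 h than at 0 h. Solyc07g039330 had 898, 918 and 826 in SGT2ox at 0 h, against 1459.9, 1478 and 1473, and 776, 897 and 751 in SGT1ami, against 3679, 3608 and 3577. At 3 h it had 1303, 1239 and 1207 in SGT2ox, against 3968, 3724 and 3690, and 946, 926 and 999.8 in SGT1ami, against 4058, 4048 and 4236. Other abundant lower genes differed by more. Solyc07g055460 and Solyc10g009595.1, named after their values were seen, had smallest differences of 2.75 and 3.18 in size.

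**Figure D2:**
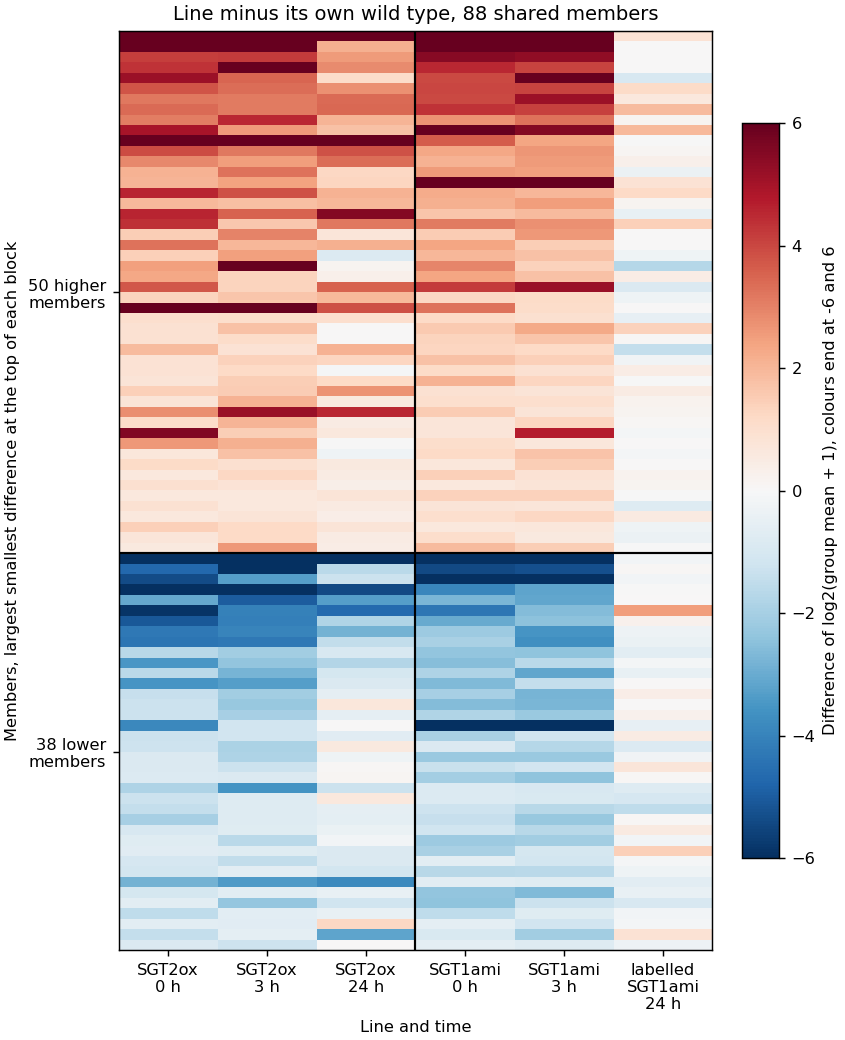
Differences of log2(group mean + 1), line minus its own wild type, for the 50 higher genes (upper block) and the 38 lower genes (lower block) in columns by line and time; red is higher and blue lower in the line, and colours end at -6 and 6. The columns of 0 h and 3 h chose the genes; the SGT2ox column of 24 h keeps most of the colour, and the column of the libraries labelled SGT1ami at 24 h is pale, with median differences of 0.0066 and -0.13.

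Separation of the individual libraries was near complete at the times that chose the genes, and it is given as a description. Every SGT2ox library was above every wild type library in 49 of the 50 higher genes at 0 h (22.7% of the 20247 genes with a mean of 30 or more) and in 44 at 3 h (14.2%). In the SGT1ami experiment the counts were 48 at 0 h (19.9%) and 45 at 3 h (21.7%). Every SGT2ox library was below every wild type library in 34 of the 38 lower genes at 0 h (21.5%) and in 35 at 3 h (19.1%), and the SGT1ami counts were 34 (17.6%) and 35 (21.9%). In all 4 comparisons at once the groups did not overlap in 39 of the 50 higher genes (0.899% of genes) and 27 of the 38 lower genes (0.948%).

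The sizes of the differences ran alike in both experiments, again as a description of values that the choice had used. Across the 50 higher genes, the mean difference of 0 h and 3 h in SGT2ox and that in SGT1ami had a Spearman rho of 0.766, and across the 38 lower genes of 0.669. Between 0 h and 3 h of the same line rho was 0.702 for SGT2ox and 0.78 for SGT1ami in the higher genes, and 0.679 and 0.732 in the lower genes. The times of a line share the plants' background and the same normalisation.

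The 88 genes were mostly of modest abundance. Their highest group mean had a median of 144 normalised reads, against 762 over all genes at a mean of 30 or more. It lay under 100 in 35 of the 88 genes (39.8%, against 12.8%) and at 1000 or more in only 4 (4.55%, against 43%). The spread between replicates was wider, with a median residual SD on the log2 scale of 0.415 for the 88 genes, against 0.12 for all tested genes, in the SGT2ox experiment and of 0.336, against 0.11, in the SGT1ami experiment. A dotted suffix in the deposited identifier, a full stop and a digit, was carried by 41 of the 88 (46.6%), against 18.3% of the genes at a mean of 30 or more. What the suffix stands for is not explained in the labels.

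The genes were spread over all 12 chromosomes, unevenly, and 2 lower genes had no placed chromosome. Chromosomes 5, 7 and 12 held 11 each, 12.5% of the 88, while they held 6.64%, 7.5% and 6.73% of the genes at a mean of 30 or more. Chromosome 1 held 5 (5.68%), against 12.8%. Higher and lower genes were not placed alike. On chromosome 12 there were 9 higher and 2 lower genes and on chromosome 2 there was 1 higher and 6 lower, while chromosomes 1 and 11 held 5 higher genes each and no lower one.

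**Figure D3:**
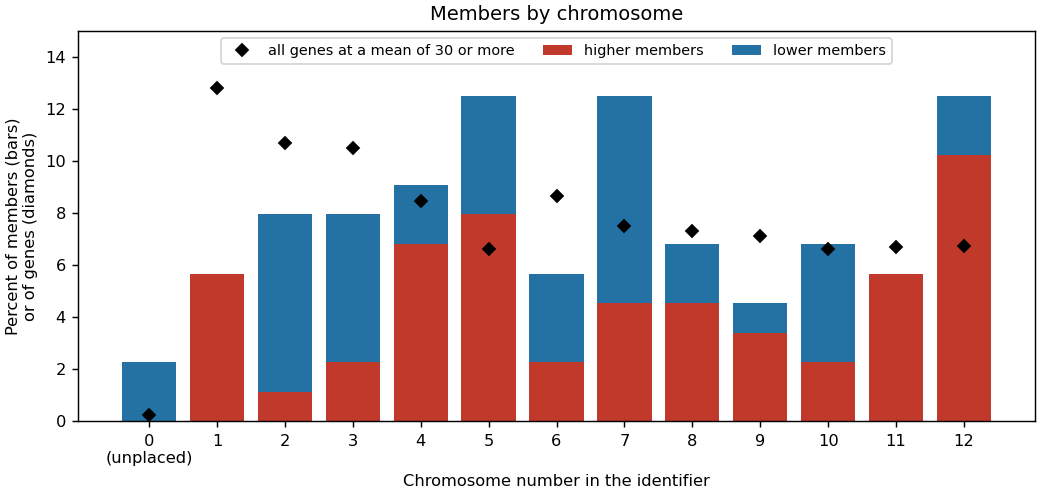
Percent of the 88 genes on each chromosome (bars, split into higher and lower genes), beside the percent of all genes at a mean of 30 or more (diamonds); 0 stands for identifiers with no placed chromosome. Chromosomes 5, 7 and 12 reach 12.5% of the genes each, and chromosome 1 reaches 5.68% beside a diamond at 12.8%.

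Some of the genes were neighbours. With neighbours defined as genes of the list at most 5 places apart in the order of the identifiers, 16 genes formed 7 groups, and within each of the 7 groups all genes had the same direction, higher in 2 groups and lower in 5. The groups of 3 are named here, chosen after their values were seen. Solyc04g077740.1, Solyc04g077750.2 and Solyc04g077755.1 on chromosome 4 were higher in both lines. Solyc04g077755.1 had 241, 266 and 199.9 normalised reads in SGT2ox at 0 h, against 13.7, 20.2 and 9.91 in wild type, and 329, 344 and 398 in SGT1ami, against 73.2, 73.2 and 65.5.

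Solyc05g041760.1, Solyc05g041770 and Solyc05g041780.1 on chromosome 5 were lower in both lines. Solyc05g041770 had 107, 119.7 and 124.3 in SGT2ox at 0 h, against 324, 328 and 259 in wild type, and 26.8, 62.7 and 43.1 in SGT1ami, against 198, 165 and 179.7. Neighbouring or near-identical genes may share reads, and the labels do not say whether counting used strand, so members of a group need not be independent measurements.

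**Figure D4:**
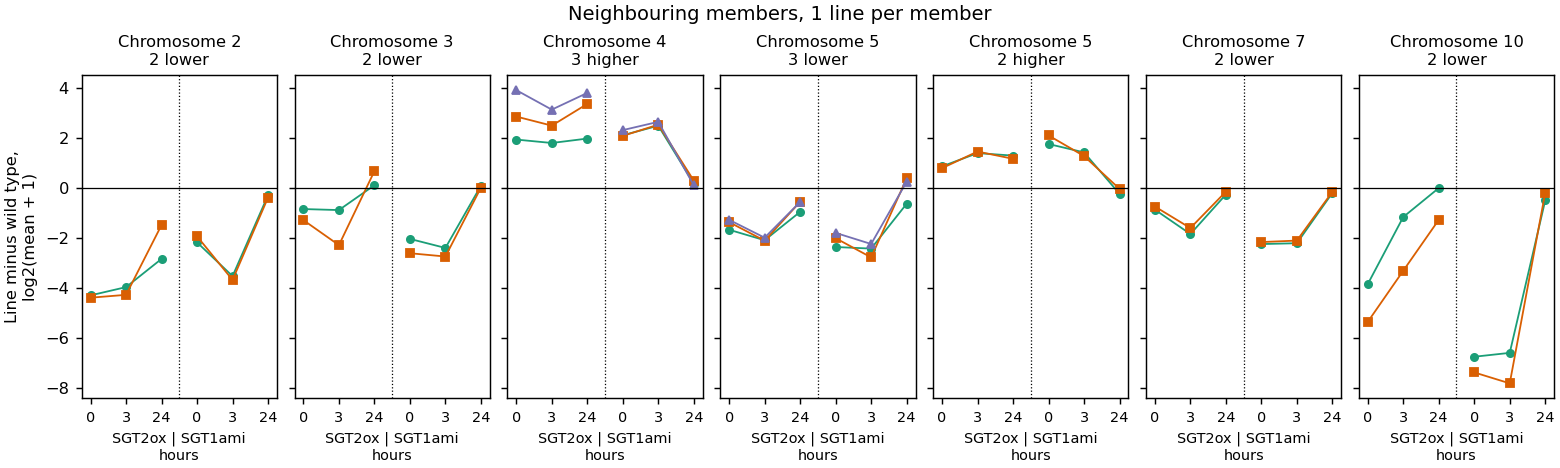
Line minus wild type on the scale log2(group mean + 1) for the 16 neighbouring genes, 1 panel per group and 1 line per gene, with SGT2ox at 0, 3 and 24 h left and SGT1ami at 0, 3 and 24 h right of the dotted line. Each gene keeps to its own side of 0 at 0 h and 3 h, which the choice of genes required. Genes of a group also share that side, which the choice did not require. In the right part the 24 h points lie between -0.63 and 0.39.

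In wild type, levels at 24 h were set beside those at 0 h as a description only, because the 0 h values had entered the choice, which favours higher genes that are low in wild type at 0 h and lower genes that are high there. In the wild type of the SGT2ox experiment, 22 of the 50 higher genes were at least 2-fold higher at 24 h than at 0 h and 10 at least 2-fold lower. Of the 38 lower genes 4 were higher and 22 lower. Among all genes at a mean of 30 or more, 18.15% were higher and 18.71% lower. In the wild type of the SGT1ami experiment the counts were 17 and 8 of the higher genes, and 4 and 17 of the lower genes. There 21.02% of all these genes were higher and 20.59% lower. At 24 h the wild type of the SGT1ami experiment differed at least 2-fold from that of the SGT2ox experiment in 52% of the higher and 76.3% of the lower genes, against 23.4% of all. The wild type levels of these genes were thus not alike in the experiments, which were run separately.

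At 24 h, the time that did not enter the choice, the differences persisted in SGT2ox for most of the genes. On the scale of the choice, 35 of the 50 higher genes were at least 1.5-fold above wild type (6.17% of all genes at a mean of 30 or more) and 22 of the 38 lower genes at least 1.5-fold below (5.78%). In the opposite direction 1 of the higher and 4 of the lower genes were past this limit, and 14 and 12 lay within it. The median difference of the higher genes was 1.26, against a median of 2.24 at 0 h and 3 h, and that of the lower genes -0.86, against -1.60. With groups at 0 set to the floor of 3 reads, the medians at 24 h were 1.21 and -0.64. Every SGT2ox library was above every wild type library in 37 of the 50 higher genes (22.1% of genes), and below in 22 of the 38 lower genes (23.1%).

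In the limma test, SGT2ox was higher than wild type at 24 h at an adjusted p under 0.05 in 31 of the 50 higher genes, against 15.1% of all genes tested, and none of the 50 was called lower. Of the 38 lower genes 20 were called lower, against 17% of all genes tested, and 1 was called higher. The filter on low values left 1 of the higher and 3 of the lower genes untested. It counted libraries of all times, so genes could pass it through the 0 h and 3 h libraries that chose them. Some of the genes called were low at 24 h. Solyc05g026260.1 had 9.57, 5.31 and 3.25 normalised reads in SGT2ox, against 0 in all 3 wild type libraries. Solyc05g023990 had 2.13, 0 and 0, against 4.29, 6.25 and 4.33. With the same filter and only the 24 h libraries in the fit, the counts were 33 (15.8%) and 19 (14.7%). With edgeR's quasi-likelihood test they were 36 (17.2%) and 20 (16.7%). Leaving out a library in turn gave 29 to 33 and 15 to 20.

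Solyc08g066400 had 589, 725 and 541 normalised reads in SGT2ox at 24 h, against 2.15, 2.08 and 4.33 in wild type, a log2 fold change of 7.37 ± 0.41 (SE; limma, adjusted p = 2.06e-13). Every SGT2ox library was again far above every wild type library. Solyc04g039670 had 419, 405 and 399 in SGT2ox, against 83.7, 83.4 and 108 in wild type, a log2 fold change of 2.15 ± 0.27 (adjusted p = 6.56e-07). Here the SGT2ox level lay below that of 0 h, and the wild type, with at most 1.62 earlier, now held reads in all 3 libraries. Solyc04g009850 reached 2304, 2680.0 and 2375 in SGT2ox, against 719, 602 and 586, a log2 fold change of 1.95 ± 0.11 (adjusted p = 9.83e-14). In a limma fit of only the 24 h libraries the adjusted p-values were weaker. They were 1.22e-07 for Solyc08g066400, 1.83e-06 for Solyc04g039670 and 3.17e-07 for Solyc04g009850.

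Solyc02g021785.1 stayed at 0 in all 3 SGT2ox libraries of 24 h, against 102, 85.5 and 115 in wild type, and was at least 94.1-fold lower by the floor of 3 reads (limma, adjusted p = 1.88e-13). Its wild type level was lower than at 0 h. Solyc07g041440 had 2.13, 4.25 and 3.25 in SGT2ox, against 8.59, 9.38 and 17.3 in wild type, a log2 fold change of -1.57 ± 0.56 (adjusted p = 0.0317). This call was lost without replicate 1 of SGT2ox (adjusted p = 0.103), without replicate 3 of SGT2ox (0.0615), without replicate 3 of wild type (0.134) and without the filter on low values (0.0538). Solyc06g010030 had 4656, 4483 and 4322 in SGT2ox, against 6243, 6109 and 6077, a log2 fold change of -0.45 ± 0.07 (adjusted p = 5.05e-06). With only the 24 h libraries in the limma fit, the adjusted p was 6.81e-07 for Solyc02g021785.1. It was 0.0206 for Solyc07g041440 and 1.27e-05 for Solyc06g010030.

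Solyc04g008400.1 was the lower gene called higher at 24 h. It had 288, 304 and 316 normalised reads in SGT2ox at 24 h, against 111, 156 and 111 in wild type, a log2 fold change of 1.27 ± 0.17 (limma, adjusted p = 9.13e-07). At 0 h it had 68.5, 82.6 and 64.3 in SGT2ox, against 125, 111 and 99.1. The SGT2ox libraries thus lay below wild type at 0 h and above it at 24 h, without overlap at either time.

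In the libraries labelled SGT1ami at 24 h the picture differed. On the scale of the choice, 9 of the 50 higher genes were at least 1.5-fold above wild type (2.47% of genes) and 5 at least 1.5-fold below, while 36 lay between. Of the 38 lower genes 7 were at least 1.5-fold below (2.39%), 4 above and 27 between. The median differences were 0.0066 and -0.13, against 1.92 and -2.06 at 0 h and 3 h. Every labelled SGT1ami library was above every wild type library in 6 of the 50 higher genes (12.7% of genes) and below in 8 of the 38 lower genes (23.6%).

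In the limma test of these libraries, 2 of the 50 higher genes were called higher, against 6.91% of all genes tested, and 4 were called lower. Of the 38 lower genes 5 were called lower, against 15.2% of all genes tested, and 2 were called higher. These shares were near or below the background, but the filter limits how they can be read. It left 3 of the higher and 2 of the lower genes untested, and it counted libraries of all times. Genes could thus pass it through the 0 h and 3 h libraries that chose them. Some, such as Solyc04g039670 and Solyc01g065725.1, were at 0 in every 24 h library of this experiment and could not be called. DESeq2 left only 36 of the 50 higher and 31 of the 38 lower genes with an adjusted p. With only the 24 h libraries the counts in the direction of the choice were 4 (5.67%) and 4 (13.1%), and with edgeR 3 (7.17%) and 6 (14.6%). Scaling by library totals moved the calls over all genes, 1541 higher and 3394 lower, to 3462 higher and 1601 lower, and left 1 of the 38 lower genes called lower. The count of higher genes was 1 without replicate 1 of the labelled SGT1ami libraries and 4 without replicate 2. The count of lower genes was 2 without replicate 2 of the labelled SGT1ami libraries and 3 without any other library of that time.

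The higher genes called higher here, named because they are few and after their values were seen, were Solyc01g108517.1 and Solyc11g011275.1. Solyc01g108517.1 had 16.9, 12.2 and 12.1 normalised reads in the libraries labelled SGT1ami at 24 h, against 1.26, 4.99 and 2.57 in wild type, a log2 fold change of 2.00 ± 0.40 (limma, adjusted p = 0.000417). In SGT2ox at 24 h it had 575, 569.6 and 486, against 54.8, 49.0 and 45.5, a log2 fold change of 3.42 ± 0.32 (adjusted p = 3.38e-09). Its groups did not overlap in either experiment. The call of Solyc11g011275.1 (log2 fold change 1.60 ± 0.55, adjusted p = 0.0355) was lost with only the 24 h libraries in the fit (0.166) and without replicate 1 (0.19) or replicate 3 (0.0704) of the labelled SGT1ami libraries or replicate 1 of wild type (0.265). Of the 5 lower genes called lower in the labelled libraries, 3 were also called lower in SGT2ox at 24 h, likewise named after their values were seen. Solyc06g010030, Solyc07g039330 and Solyc07g039320.2 had small log2 fold changes in the labelled libraries, of -0.17 ± 0.05, -0.15 ± 0.05 and -0.19 ± 0.06 (limma, adjusted p = 0.027, 0.0217 and 0.0291). With library totals only 1 of the 38 lower genes was called lower in the labelled libraries, so most of these calls depended on the scaling. In SGT2ox the call of Solyc07g039330 was lost with only the 24 h libraries in the fit (0.0695).

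Some genes of near absence show where the labelled libraries lay. In the libraries labelled SGT1ami at 24 h, Solyc08g066400 had 0, 0 and 2.42 normalised reads, against 0 in all 3 wild type libraries. Solyc04g039670 was at 0 in all 6. Both had been abundant in every SGT1ami library of 0 h and 3 h. Solyc02g021785.1, at 0 in every SGT1ami library of 0 h and 3 h, had 280.1, 275 and 321 in the libraries labelled SGT1ami at 24 h, against 314, 365 and 317 in wild type (log2 fold change -0.19 ± 0.20, limma, adjusted p = 0.583).

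The same was counted over all genes of near absence. Of the 9 higher genes near absent from both wild types at 0 h and 3 h, 8 had a mean under 3 in the libraries labelled SGT1ami at 24 h, as did 8 in their wild type, against 1 in SGT2ox at 24 h and 6 in its wild type. Of the 5 lower genes near absent from both lines, 1 had a mean under 3 in the libraries labelled SGT1ami at 24 h, with 2 in their wild type, against 5 in SGT2ox and 2 in its wild type. Solyc10g038185.1, chosen after its values were seen, had 109, 91.6 and 105 in the libraries labelled SGT1ami at 24 h, against 117, 125 and 105 in wild type, and at most 1.58 in the SGT1ami libraries of 0 h and 3 h. Relative to SGT1ami at 0 h, the libraries labelled SGT1ami at 24 h were at least 2-fold lower in 31 of the 50 higher genes and higher in 4. Among all genes at a mean of 30 or more, 20.87% were lower and 20.45% higher by this measure. The labelled libraries were at least 2-fold higher in 22 of the 38 lower genes and lower in 6. These counts are a description, since the choice had required SGT1ami at 0 h to be above wild type in the higher genes and below it in the lower genes.

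Among the 50 higher genes, limma called 4 against the direction of the choice and 2 in it when the labelled SGT1ami libraries were tested. Lower calls also exceeded higher calls over all genes tested (15.2%, against 6.91%), so this order was not particular to the 50. The order held with edgeR (4 against the direction, 3 in it). It did not hold with only the 24 h libraries in the fit (3 and 4) or with library totals (3 and 3). Solyc04g009850, the most abundant of the higher genes, had 1071, 1131 and 1144 normalised reads in the labelled libraries, against 1404, 1356 and 1304 in wild type (log2 fold change -0.28 ± 0.06, limma, adjusted p = 0.002). All 3 labelled libraries lay below wild type, whereas SGT1ami had been above it at 0 h and 3 h. Solyc05g150132 had 14.5, 3.66 and 2.42, against 12.6, 32.5 and 29.5 in wild type (-1.94 ± 0.50, adjusted p = 0.00554). The groups overlapped through replicate 1. Among the lower genes, Solyc12g150108 was called higher in the labelled libraries. It had 15.7, 4.89 and 14.5 in them, against 3.77, 0 and 0 in wild type (2.77 ± 0.64, limma, adjusted p = 0.00207). In SGT2ox at 24 h it was at 0 in all 3 libraries, against 24.7, 30.2 and 18.4. The SGT2ox mean of Solyc12g150108 was at least 22.8-fold lower by the floor of 3 reads.

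**Figure D5:**
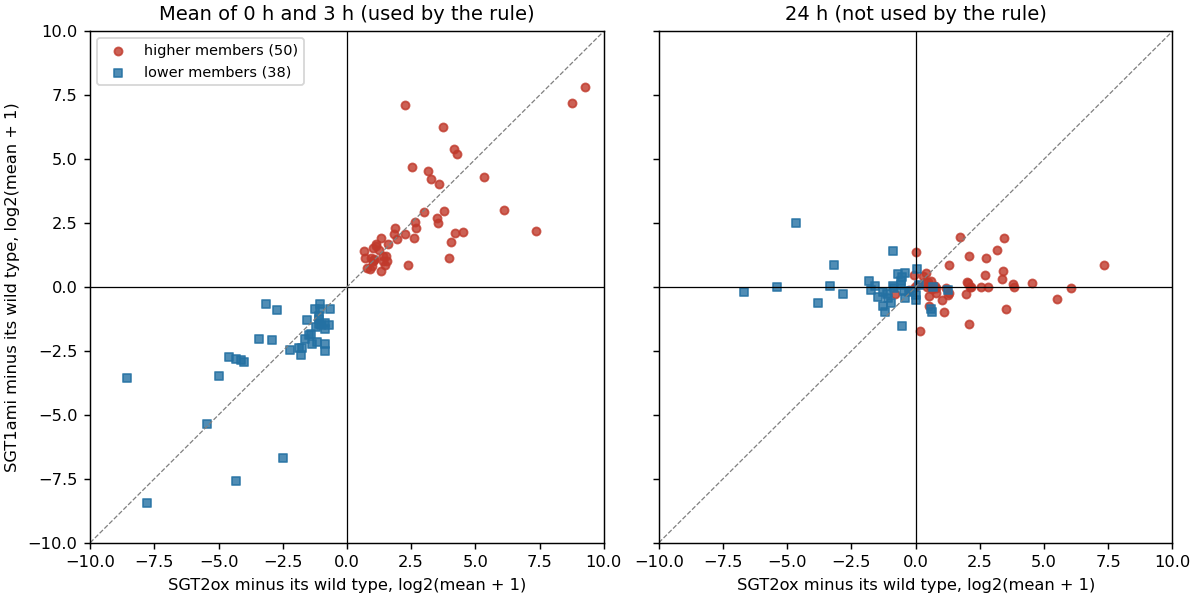
Line minus wild type on the scale log2(group mean + 1), SGT2ox on the horizontal and SGT1ami on the vertical axis, for the mean of 0 h and 3 h (left, values that chose the genes) and for 24 h (right); circles are the 50 higher and squares the 38 lower genes, and the dashed line marks equal differences. At 24 h the genes spread along the horizontal axis, from -6.67 to 7.33, and less along the vertical axis, from -1.72 to 2.49.

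Whether the line difference at 24 h itself differed between the experiments was tested in a limma fit of all 36 libraries. The difference was larger in SGT2ox than in the libraries labelled SGT1ami in 27 of the 50 higher genes, against 17.2% of all genes tested, and in none of the 50 was it smaller at this threshold. It was more negative in SGT2ox in 13 of the 38 lower genes, against 14.1% of all genes tested, and more positive in 1, Solyc04g008400.1. With edgeR 22 of the higher genes passed. Scaling by library totals moved the calls over all genes, 3949 more positive and 3227 more negative, to 2598 and 5096, a shift in the median of all genes from 0.02 to -0.09. The largest values were those of Solyc08g066400 (6.77 ± 0.61, adjusted p = 7.69e-12) and Solyc12g036267.1 among the higher genes, and of Solyc12g150108 and Solyc02g021785.1 among the lower. For Solyc08g066400 edgeR did not call this difference (adjusted p = 0.951), where 5 of the 6 libraries of the SGT1ami experiment at 24 h hold no read.

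Solyc12g036267.1 had 54.2, 72.3 and 68.3 normalised reads in SGT2ox at 24 h and 0 in all 3 wild type libraries, at least 60.9-fold higher by the floor of 3 reads. In the libraries labelled SGT1ami at 24 h it had 2.41, 0 and 0, against 0, 0 and 2.57 in wild type. At 0 h it had 205, 267 and 239 in SGT2ox, against 4.85, 3.24 and 0, and 66.2, 64.3 and 83.8 in SGT1ami, against 6.30, 7.96 and 0. The gene was above wild type in both lines at 0 h and, at 24 h, in SGT2ox alone at levels above a few reads.

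The neighbouring genes on chromosome 4 followed the same course. Solyc04g077755.1 had 884, 749 and 822 normalised reads in SGT2ox at 24 h, against 54.8, 65.7 and 52.0 in wild type (log2 fold change 3.81 ± 0.22, limma, adjusted p = 4.71e-13). In the libraries labelled SGT1ami at 24 h it had 279, 315 and 322, against 260.1, 277 and 311 (0.11 ± 0.12, adjusted p = 0.582). The difference between the experiments was 3.70 ± 0.26 (adjusted p = 9.61e-15). The labelled libraries and their wild type overlapped, and that wild type stood well above the wild type of the SGT2ox experiment.

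Solyc05g041770 of the chromosome 5 group had 114, 88.2 and 72.7 in SGT2ox at 24 h, against 146, 150.1 and 107 in wild type (log2 fold change -0.56 ± 0.16, limma, adjusted p = 0.00742). This call was lost with only the 24 h libraries in the fit (0.0657) and without replicate 3 of SGT2ox (0.0667). In the libraries labelled SGT1ami at 24 h it had 79.7, 81.8 and 91.9, against 47.8, 73.7 and 71.9 (0.41 ± 0.21, adjusted p = 0.189). The labelled libraries were all above their wild type, and the SGT2ox libraries overlapped with theirs.

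Across genes, the order of the differences at 24 h followed that of 0 h and 3 h in SGT2ox, with a Spearman rho of 0.647 over the 50 higher and 0.686 over the 38 lower genes. In the SGT1ami experiment rho was 0.219 and -0.112. These values describe the genes and come with no test, since genes are not replicates and the sets were chosen on the earlier times.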

How the data were processed

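The deposited table holds a signal for 29285 genes in 36 libraries, made by the authors from gene counts by dividing each library by its own size factor. This was read from the values, of which 100% were whole multiples of 1 read within 0.01. Factors ran from 0.779 to 1.311. The submitters' processing notes list DESeq2, featureCounts, STAR and Trimmomatic without versions, roles or order. The genome build was not given in the sources used here, nor was the annotation. Sample titles gave the groups. The genes, lists and tests were chosen with earlier results of these data known.

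Tests were run in limma 3.58.1 (R 4.3.3, trend option) on log2(value + 1), which understates the fold of low genes. The 18 libraries of an experiment, in 6 groups, went into a fit of their own, and the difference between the experiments was fitted on all 36. Genes at 10 or more in at least 3 libraries of any time were tested, 22399, 22286 and 22945 in number. The same genes were kept where only the 24 h libraries were fitted. Benjamini-Hochberg adjusted p-values were called at 0.05. The fits were tested on simulated data. There a fit over all times called more unchanged genes than a fit of the 24 h libraries, so counts from both are given. edgeR 4.0.16 and DESeq2 1.42.0 were run on the recovered reads as alternatives. edgeR called 7590 genes for SGT2ox at 24 h, against 7188 with limma, and 4858 for the libraries labelled SGT1ami, against 4935. Other alternatives were TMM and library-total scaling, no filter, a pseudocount of 10, other limits of the rule, the replicate number as a block and leaving out each library. Over 18 pairs of same-numbered libraries, deviations from the group means had correlations of -0.0451 to 0.0216, so numbers were not taken as pairs.

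The reference gene table has 41476 entries, and 0 of the identifiers were found in it, so no names, functions, marker genes or sequences are given. Named were, per direction, the 2 genes with the largest smallest difference, the highest mean, the largest difference between the experiments, a call against the direction, and nearest to the limit. Others are said to be chosen after their values were seen. A group at 0 was given a floor of 3 reads over its 3 libraries, which covers counting error only.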

Additional observations from a re-analysis of the deposited data

Results flagged for a closer look

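For the values below, the line difference at 24 h was tested to differ between the experiments (limma over all 36 libraries, SGT2ox difference minus the difference of the libraries labelled SGT1ami, log2 scale, adjusted p under 0.05). This held for 27 of the 50 higher and 14 of the 38 lower genes, against 31.3% of all genes tested in either direction. The count of lower genes lay near that share. By direction, 13 of the 38 were more negative in SGT2ox, against 14.1% of all genes tested.

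Among the higher genes the value was 6.77 for Solyc08g066400, 6.05 for Solyc12g036267.1 and 2.15 for Solyc04g039670. The neighbours Solyc04g077740.1, Solyc04g077750.2 and Solyc04g077755.1 had 1.82, 3.09 and 3.70. For Solyc04g009850, Solyc05g150132, Solyc07g016117.1 and Solyc12g039080, the 4 higher genes called lower in the libraries labelled SGT1ami, it was 2.23, 2.04, 2.13 and 1.27. It was 1.42 for Solyc01g108517.1 and 0.41 for Solyc10g150122.

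Among the lower genes the value was -7.42 for Solyc12g150108, -6.47 for Solyc02g021785.1, -0.29 for Solyc06g010030, -0.97 for Solyc05g041770 and -0.82 for Solyc05g041780.1, and 1.35 for Solyc04g008400.1. Where a 24 h group is at 0 in all 3 libraries (Solyc08g066400, Solyc12g036267.1, Solyc12g150108, Solyc02g021785.1 and Solyc04g039670), the fitted value depends on the 1 added before the logarithm and is no bound. edgeR did not call the difference for Solyc08g066400 (adjusted p = 0.951), Solyc04g039670 (adjusted p = 1) or Solyc01g108517.1 (adjusted p = 0.209). With only the 24 h libraries, limma did not call it for Solyc05g150132 (0.0792) or Solyc05g041780.1 (0.0665).

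Some of these calls were lost when 1 library was left out. For Solyc10g150122 this held without SGT2ox replicate 2 (adjusted p = 0.108), the wild type of SGT2ox replicate 2 (0.0583) or 3 (0.069), labelled SGT1ami replicate 2 (0.0509) or 3 (0.0736) and its wild type replicate 1 (0.0715) or 2 (0.0604), and also with library totals (0.121). For Solyc05g150132 it held without SGT2ox replicate 1 (0.0663), its wild type replicate 1 (0.0506) or labelled SGT1ami replicate 3 (0.0676). For Solyc01g108517.1 it held without SGT2ox replicate 1 (0.0525) or 2 (0.0518), its wild type replicate 3 (0.0529), labelled SGT1ami replicate 2 (0.0526) or 3 (0.0539) or its wild type replicate 2 (0.113). For Solyc05g041780.1 it held without SGT2ox replicate 1 (0.075) or 3 (0.0705), its wild type replicate 2 (0.0919), labelled SGT1ami replicate 1 or 3 (0.0604 each) or its wild type replicate 2 (0.0699) or 3 (0.0843). The lower call of Solyc07g016117.1 in the libraries labelled SGT1ami was lost with only the 24 h libraries (0.0907).

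Since the identity of the libraries labelled SGT1ami at 24 h is in doubt, a difference between lines and a difference between labels cannot be told apart in these values.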

How the results depend on the processing

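The size of the gene set followed the limits of the rule. With a limit of 1 on each difference there were 27 higher and 18 lower genes, with a mean of at least 100 there were 28 and 25, and with log2(mean + 10) there were 32 and 23. A mean of at least 10 gave 59 lower genes. Leaving out a library of 0 h or 3 h in turn gave 47 to 54 higher and 34 to 42 lower genes. The counts of calls at 24 h in SGT2ox and of differences between the experiments stayed within 1.5 times under every alternative run. For the libraries labelled SGT1ami, the 2 higher genes called became 4 with only the 24 h libraries and 1 to 4 without a library in turn. The 5 lower genes called became 1 with library totals and 2 to 3 without a library in turn, and fewer libraries in the fit are part of that last alternative. The cause of the others was not tested. Same-numbered libraries did not pair, and 6 of 18 correlated best with their own number. With the replicate number as a block the counts of higher and lower genes were 31 and 20 for SGT2ox, 2 and 5 for the libraries labelled SGT1ami and 27 and 15 for the difference between the experiments. Values that changed sign were uncalled ones: for SGT2ox, Solyc05g150132 (-0.31 to 0.43 without a library in turn) and Solyc07g009470 (0.057 with edgeR, 0.049 with DESeq2, -0.30 to 0.39), and for the libraries labelled SGT1ami, Solyc12g036267.1 (2.7e-05 with library totals, -0.61 to 0.59), Solyc04g008400.1 (0.0087 with library totals, -0.18 to 0.11) and Solyc07g041440 (-0.19 to 0.35). Of the other values of named genes under an alternative, 971 kept direction and call, 96 lost the call and 5 gained it. Low read numbers limit the genes near absence, where a few reads decide the fitted value.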
